A study of Mus musculus with 9 samples.

Results

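RAW 264.7 cells given RANKL with surface proteins of Propionibacterium freudenreichii MJ2 were compared with RAW 264.7 cells given RANKL alone, gene by gene. The comparison used 6 of the 9 libraries of the series, 3 of each group (the other 3, of cells given heat-killed MJ2, were not used in it), and 10874 of its 23282 gene rows. A row entered the comparison where 3 or more of the 6 libraries held 10 adjusted reads or more. Adjusted reads are 2 raised to the deposited log2 value, minus 1, and on this scale a low value steps in units close to 1 read. Both groups were the same mouse macrophage line, which the labels give as strain BALB/c at passage 30, and both received RANKL at 50 ng/mL for 4 days. The negative control received RANKL only. The surface protein-treated cells also received 10 µg/mL of the proteins that guanidine-HCl had stripped from the bacterial surface, which is an extract of many proteins and not a purified one. A single line stands for the whole comparison, and the labels do not say that the replicates were separate cultures, so p-values measure only the spread between these samples. The libraries read the 3′ end of mRNA, so a level does not grow with transcript length.

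RANKL binds its receptor RANK on macrophage precursors and switches on NF-κB, AP-1 and NFATc1, after which the cells fuse into multinucleated osteoclasts that dissolve bone with acid and proteases. Macrophages also carry Toll-like receptors that recognise bacterial surface molecules. Those receptors act through NF-κB, AP-1 and interferon regulatory factors, and they switch on cytokines, chemokines, antimicrobial proteins and interferon-stimulated genes. Macrophages under such stimulation are known to change their iron, lipid and amino acid metabolism and to slow their division.

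The labelled cell type was checked on marker genes. All 8 macrophage markers were found in every library, the lowest being Adgre1 at 106, 93.9 and 26.7 adjusted reads in replicates 1 to 3 of the negative control. Of the 8 osteoclast markers, Calcr stayed at or under 4.93 adjusted reads in all 6 libraries and the other 7 were found in each of them. Of 34 markers of T, B and NK cells, neutrophils, mast cells and stroma, 25 were at or under 3 adjusted reads in all 6 libraries. Their summed level ran from 29.6 to 62.0 adjusted reads with RANKL alone and from 50.1 to 86.1 with surface proteins. Without Csf3r, described next, it ran from 29.6 to 61.95 with RANKL alone and from 25.5 to 64.8 with surface proteins. Chosen after their values were seen, Csf3r, the receptor of a neutrophil growth factor, and Dcn, a matrix protein of stroma, were higher with surface proteins (Dcn at 0, 0.057 and 0 against 13.7, 23.2 and 9.81), while Pecam1, a marker of endothelium, was at 16.3, 7.43 and 0 against 0, 0 and 0.045. Their part in the results was not tested. In a bulk library, fewer cells of a kind and less RNA per cell cannot be told apart.

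Library totals ran from 6156467 to 6195319 adjusted reads with RANKL alone and from 6329523 to 6503682 with surface proteins. A single read corresponded to 0.924 to 1.10 adjusted reads. Some rows lay above 0 and at or under 0.5, which is less than 1 read: 3195 in replicate 2 of the negative control, 2948 in replicate 3 of the surface protein group and 0 elsewhere. They are given as deposited. Rn45s, ribosomal RNA, made up 9.76% to 12.4% of each library. Pearson's r across the tested genes, which are not independent replicates, was 0.951 to 0.960 within groups and 0.810 to 0.862 between them. Replicates differed by more than sampling noise, with a chi-square per degree of freedom of 11.3 to 18.5, so no library was a copy of another. Separate preparations of 1 culture would also differ in this way.

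A gene was called differentially expressed when it changed by 2-fold or more with a Benjamini-Hochberg adjusted p below 0.05 from limma. The words rose and fell are used only of such genes. By this rule 1901 genes were called, 17.5% of those tested, of which 1105 rose (10.2%) and 796 fell (7.32%). Large changes were mostly increases: among the called genes 490 rose and 235 fell by at least 4-fold, and 136 rose and 15 fell by at least 16-fold. With the genes cut into 4 equal classes by mean level, the share called was 24.86% in the lowest class and 16.89%, 14.2% and 13.98% in those above it. The filter lets a gene in through 1 group alone. Of the tested genes, 194 were under 10 adjusted reads in all 3 libraries of the negative control, of which 189 were called, and 59 were under it in all 3 libraries with surface proteins, of which 48 were called. The groups did not overlap in 48.4% of all genes tested, and in every called gene. Across the 6 fits that each dropped 1 library, 1242 of the 1901 genes (65.3%) kept their call in every fit. Just inside the limit on low values, the third highest value was 10.0 adjusted reads in Ifit2 and 10.2 in 4930459C07Rik, and just outside it was 9.96 in Bbs2 and 9.95 in Gk5.

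**Figure D1:**
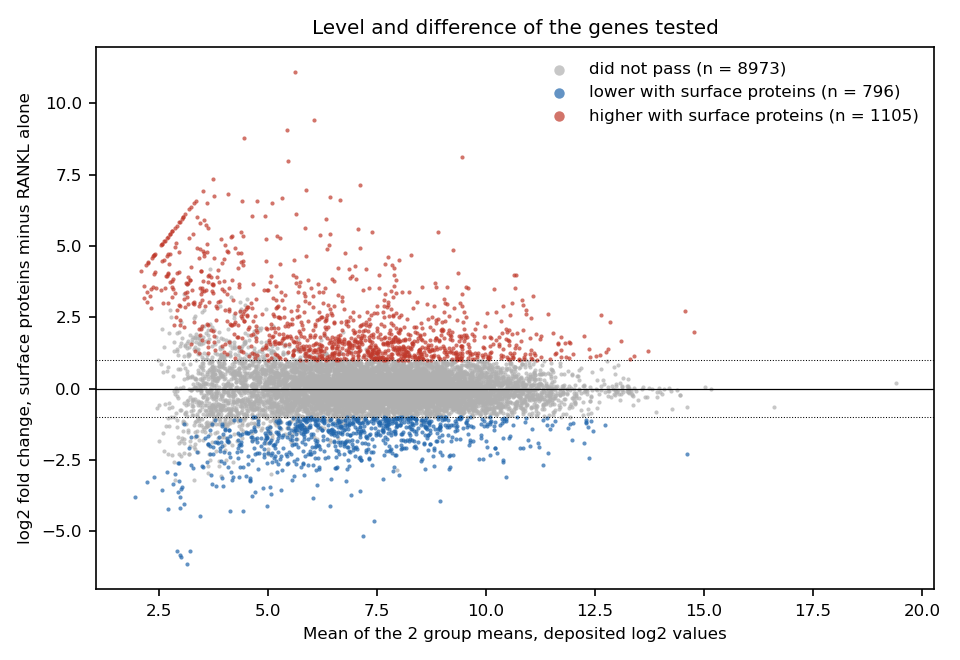
Each point is 1 of the 10874 genes tested, with the mean of the 2 group means of the deposited log2 values on the x axis and the log2 fold change (surface proteins minus RANKL alone) on the y axis. Genes that rose are red (1105), genes that fell are blue (796), the dotted lines mark a fold change of 2, and the increases reach further from 0 than the decreases.

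To see which functions the called genes belong to, 40 lists of genes were counted. They hold 1014 of the tested genes, 390 of them called, and the other 1511 called genes lie outside every list. Beside the median log2 fold change of each list stands that of all genes tested, which was -0.01, and the share of all genes that rose or fell, 10.2% and 7.32%. Among lists of at least 10 tested genes, the widest shifts upward were in antimicrobial, interferon-stimulated and ATF4-linked genes, and the widest shifts downward in mitotic, replication and osteoclast genes. The third place changed with the settings: receptors for metabolites passed the ATF4 list without surface protein replicate 1 (1.85 and 1.68), and histone genes passed osteoclast effectors over genes at 10 or more adjusted reads in all libraries (-1.53 and -1.06). The filter favours genes that are high in 1 group. The 36 lists with 3 or more tested genes were therefore also counted over genes at 10 adjusted reads or more in all 6 libraries. In 6 of these lists the count of called genes moved by over 1.5 times. Of all genes under that limit 1495 of 9592 were called, or 15.6% (8.56% higher and 7.03% lower). Called genes were then 5 of 10 in co-stimulation, 6 of 17 in cytokines, 6 of 7 in antimicrobial genes, 4 of 8 in metabolite and lipid mediator receptors, 7 of 16 in immune metabolism and 3 of 20 in G1 and checkpoint genes, the last of these near the share of all genes. The medians of those for co-stimulation, cytokines, antimicrobial genes and receptors were then 0.30, 0.365, 2.48 and 0.28. Other medians moved too, among them those of antiviral genes (2.27), of mRNA decay factors, phosphatases and SOCS proteins (0.76) and of chaperones (1.04). Below, ± after a log2 fold change is its standard error from limma, and values of replicates 1, 2 and 3 are given in that order, with RANKL alone first and surface proteins second.

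**Figure D2:**
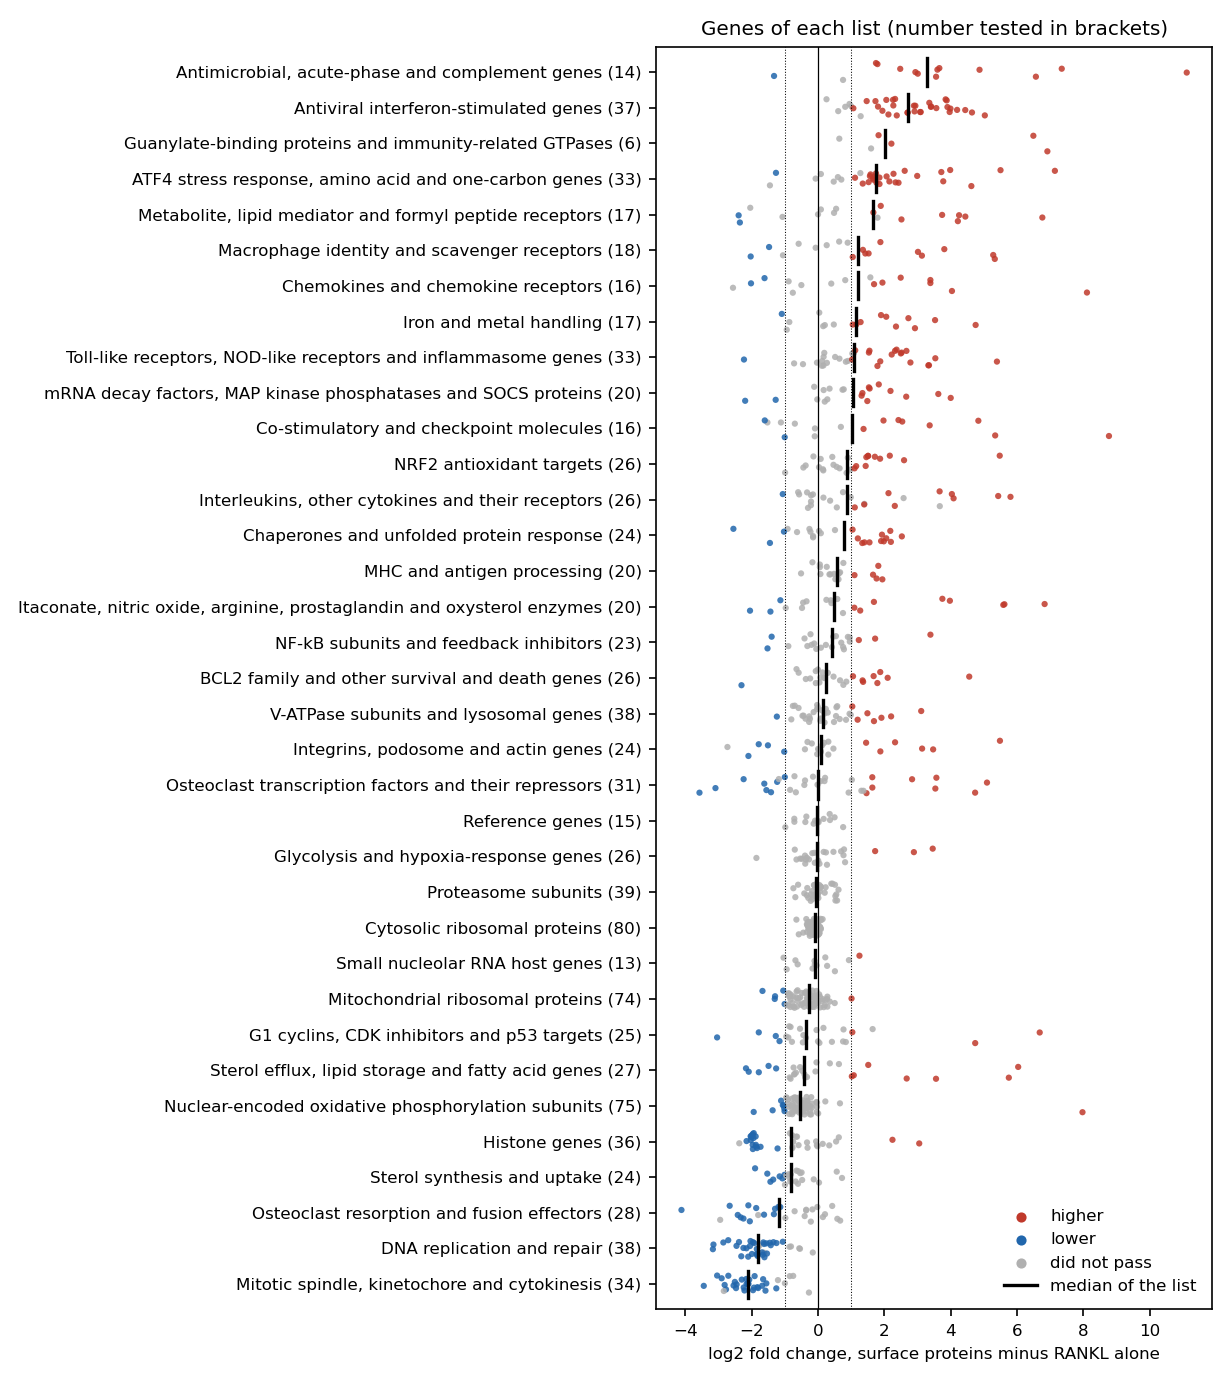
Each point is a tested gene, placed by its log2 fold change (surface proteins minus RANKL alone, x axis) in the row of its list, with red for genes that rose, blue for genes that fell and grey for genes that did not pass. The black bar is the median of the list, which runs from 3.28 for antimicrobial, acute-phase and complement genes to -2.10 for mitotic genes, while ribosomal proteins, proteasome subunits and reference genes lie between -0.09 and -0.02.

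The 10 genes that gained the most reads included both ferritin chains, 3 chaperones of the endoplasmic reticulum and a lysosomal protease. Fth1, the heavy chain of the iron store ferritin, was at 8688, 10959 and 8858 adjusted reads in negative control cells and at 53453, 78913 and 57728 with surface proteins (log2 fold change 2.72 ± 0.20). It took between 0.140% and 0.178% of a library with RANKL alone and between 0.845% and 1.21% with surface proteins, the largest gain after that of Rn45s, which was not called and had overlapping groups. Hspa5, the main chaperone of the endoplasmic reticulum, went from 15639.5, 13700.1 and 12809 to 70973, 44638 and 53564 adjusted reads. Next came Spp1 (osteopontin, a secreted bone matrix and macrophage protein), Sqstm1 (the autophagy receptor p62), Hsp90b1, Cxcl2, Ctsd, Ftl1 and Calr, each of which rose.

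Among the 10 genes that lost the most reads, S100a4, a small calcium-binding protein of motile cells, stood out. It was at 56893, 53009.8 and 56110.2 adjusted reads with RANKL alone and at 15748, 7377 and 12685 with surface proteins (log2 fold change -2.28 ± 0.29, limma adjusted p = 0.0033), or 0.861% to 0.918% of a library against 0.113% to 0.249%. Replicate 2 of the surface protein group was the lowest of the 3. Fxyd2, a regulator of the sodium pump, was at 14653, 14602 and 8646 against 3023, 1508 and 2556 adjusted reads, and Ank, a membrane exporter of pyrophosphate, at 8416, 9222 and 10601 against 3127, 1690.4 and 3031. Both fell (log2 fold changes -2.44 ± 0.34 and -1.89 ± 0.27). Csf1r, the receptor for the survival factor of macrophages, fell from 9877, 9286 and 8809.5 to 4161, 2657 and 3403 adjusted reads (log2 fold change -1.47 ± 0.20). Lpl (lipoprotein lipase) also fell. The nuclear RNAs Malat1 and Neat1 and the chaperone Hsp90ab1 lost many reads in absolute terms without passing, with log2 fold changes of -0.66, -0.72 and -0.63.

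**Figure D3:**
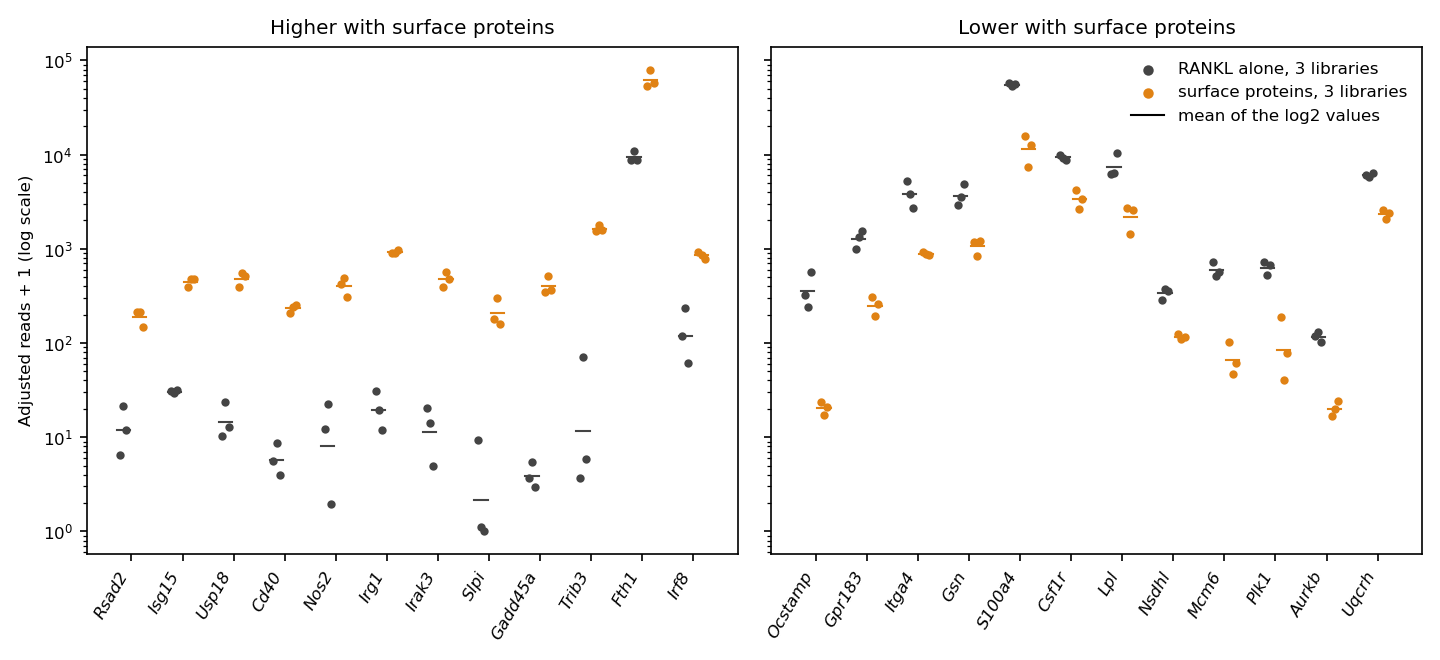
Adjusted reads plus 1 on a log axis in each of the 6 libraries, for 12 genes that rose (left) and 12 that fell (right) with surface proteins. Points are libraries of RANKL alone (grey) and of surface proteins (orange), bars are the means of the log2 values, and in none of the 24 genes do the groups overlap.

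Among called genes above the median level that the text and tables of the study do not name, the 15 with the widest rise and the 15 with the widest fall were taken. Those that rose came from several functions. Fyb, an adaptor that couples immune receptors to integrins and actin, was at 361, 426 and 418 adjusted reads without and 5799.7, 7057 and 6246 with surface proteins (log2 fold change 3.98 ± 0.15, limma adjusted p = 6.5e-05). Replicates of both groups lay close together. Pou2f2, a transcription factor of B cells and macrophages, went from 111, 75.6 and 25.7 to 1550.0, 1620.4 and 1572 adjusted reads. Calcrl, the receptor subunit for the peptides CGRP and adrenomedullin, went from 68.3, 42.2 and 43.5 to 895, 1270.2 and 947. Ms4a6d, a membrane protein of myeloid cells, was at 48.7, 52.97 and 56.3 against 1084, 1603 and 1028 adjusted reads, and Rtp4, an interferon-induced chaperone of receptors, at 76.8, 70.2 and 15.8 against 854, 1015 and 917. The log2 fold changes of these 4 genes lay between 4.33 and 4.69 with adjusted p between 0.00013 and 0.004. Angptl6, a secreted angiopoietin-like protein, rose with them (log2 fold change 4.23 ± 0.21).

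Of the 15 that fell, several are genes of the cell cycle, given further on, and the rest came from several functions. Cldn11, a tight junction claudin, was at 1494, 1679 and 1298 adjusted reads with RANKL alone and at 263, 162 and 248 with surface proteins (log2 fold change -2.75 ± 0.23). Neurl1b, a ubiquitin ligase that acts on Notch ligands, went from 1759, 1297 and 1448 to 265, 167 and 216, and Serpinb8, an intracellular protease inhibitor, from 725, 513 and 608 to 73.3, 71.9 and 142. Plau, the urokinase that activates plasminogen around migrating cells, fell from 553, 869.7 and 1342 to 130.1, 119.9 and 237. Eno3, the muscle form of enolase, fell from 714, 962 and 979.9 to 176, 86.3 and 223. The limma adjusted p of these 5 genes lay between 0.00082 and 0.0075, and their groups did not overlap. Cd72, a C-type lectin with an inhibitory tail, and Tesk1, a kinase of actin regulators, both fell (-2.56 and -2.52 on the log2 scale), but they overlap by 352 bases on chromosome 4 (GRCm38.p6, 43447724 to 43455102 and 43442277 to 43448075). Cd72 was at 3538, 2826 and 3384 against 619, 508 and 523 adjusted reads and Tesk1 at 3496, 2808 and 3372 against 649, 529 and 509.6. The 2 rows differed by at most 0.069 on the log2 scale in every library. Whether both rows count the same reads was not tested, so neither can be taken as a separate fall. How the authors treated reads over 2 genes is not given in the sources used here.

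A set of 20 genes held 3 adjusted reads or fewer in each negative control library and 50 or more in each library with surface proteins, and 1 gene showed the reverse. A fold change of such a gene is given as a lower bound, the mean of the high group divided by a floor of 3 adjusted reads per library, which covers counting error only. Wfdc17, a secreted inhibitor of the whey acidic protein family, was at 0, 2.27 and 0.97 against 811, 1301 and 961 adjusted reads, at least 341-fold higher. Slamf7, a homotypic receptor of activated leukocytes, was at 0, 0.11 and 0 against 335, 734 and 371, at least 159.9-fold higher. Aqp9, a channel for glycerol and water, reached 69.5, 182 and 115 adjusted reads and Tarm1, an activating receptor of myeloid cells, reached 86.2, 142 and 64.6, with at most 0.85 in any library of RANKL alone. The rest of the set included the glycosyltransferase Galnt3 (at least 33.1-fold higher), the histidine-degrading enzyme Hal (at least 29.9-fold), the triglyceride synthase Dgat2 (at least 28.2-fold), the nucleoside transporter Slc28a2 (at least 22.1-fold), the collagen receptor Ddr2 (at least 21.1-fold) and the adhesion protein Cdsn (at least 27.2-fold). Serpinb11 alone was switched the other way, from 54.5, 57.04 and 91.99 to 0, 0.9 and 0.12 adjusted reads, at least 22.6-fold lower. Chosen after its values were seen, Car6, a secreted carbonic anhydrase, was at 0.85, 7.66 and 0 adjusted reads with RANKL alone and 1180.2, 2431 and 1773 with surface proteins.

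Several chemokines that recruit monocytes rose, and receptors for chemokines moved both ways. Of 16 tested genes of the list, 7 rose and 2 fell, with a median log2 fold change of 1.1988, or 0.45 without replicate 3 of the negative control. Ccl4, which attracts monocytes and natural killer cells, was at 127, 161 and 207 adjusted reads without and 2269.8, 3484 and 2389 with surface proteins (log2 fold change 4.04 ± 0.26, limma adjusted p = 0.0004). Ccl3, whose RefSeq span overlaps that of Ccl4 so that each value is uncertain, went from 1042, 1733 and 1949 to 5318, 7459 and 5038, and Ccl7, a ligand of CCR2, from 14.9, 7.67 and 28.7 to 159.5, 213 and 135. The receptor Ccr2 itself rose from 12.1, 15.2 and 19.8 to 134, 76.9 and 73.4 adjusted reads. Against these, Ccr1, a receptor for CCL3 that osteoclast precursors use, fell from 202, 278 and 384 to 112, 69.03 and 95.6 (log2 fold change -1.61 ± 0.29). Cx3cr1, the fractalkine receptor, was called lower at -2.02 on the log2 scale but not without replicate 1 or 2 of the negative control or without any 1 of the surface protein replicates (adjusted p up to 0.11). Cxcl10, a ligand better known as an interferon target, did not pass, with 13.04, 17.4 and 0 against 15.6, 23.95 and 15.5 adjusted reads and overlapping groups. Nor did Ccl2, at 135, 290.0 and 278 against 284, 388 and 227.

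The promoter of Cxcl2, a neutrophil chemokine and the gene with the widest rise in this list, is shown because it holds the κB letters GGGA, any base, then TTTCC, read on both strands, in the 250 bases before its start. Only 0.466% of the 27025 genes in the RefSeq promoter table (GRCm38.p6, 250 bases before to 50 after the start) hold these letters, as do 0.529% of those tested, 0.735% of the genes that rose and 0.658% of those that fell. Among listed genes with a promoter, 2 of 11 chemokine genes (Cxcl2 and Ccr3) and 3 of 20 NF-κB genes (Nfkb2, Nfkbia and Cyld) hold them. Cxcl2 was at 24.3, 146 and 18.8 against 9299, 15456 and 10630.1 adjusted reads. Capitals mark the match in 30 bases of context on each side, on the strand of the gene at chr5:90903772-90903841.
Cxcl2: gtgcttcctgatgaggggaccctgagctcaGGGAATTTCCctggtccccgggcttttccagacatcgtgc
The match begins 97 bases before the start. It is a match of letters, not a measured site.

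Some cytokine genes came on from near 0, while others stayed under the limit on low values. Of 26 tested cytokine and receptor genes, 9 rose and 1 fell, with a median of 0.87. Il23a, the p19 subunit of IL-23, was at 0, 0.081 and 0 adjusted reads without and 44.1, 33.7 and 54.3 with surface proteins, at least 14.7-fold higher. Csf3, the growth factor of neutrophils, was at 1.78, 0.11 and 0 against 81.2, 101 and 62.7, at least 27.2-fold higher, and its receptor Csf3r at 0, 0.061 and 0.98 against 24.6, 21.3 and 15.2, at least 6.78-fold higher. Ebi3, a subunit of IL-27 and IL-35, rose from 168, 197 and 165 to 579, 994 and 796 adjusted reads (log2 fold change 2.12 ± 0.23). Tnfrsf1b, the second receptor for TNF, rose from 183, 295 and 164 to 785, 1370.0 and 1022 (log2 fold change 2.31 ± 0.30). The classical products Il1b, Il6 and Il12b did not enter the comparison: Il1b lay between 0 and 15.3 adjusted reads in the 6 libraries, Il6 between 0 and 39.7, and Il12b at or under 1.10. For Il6 the highest value, in replicate 2 of the surface protein group, was above 4.88 and 6.6 in replicates 1 and 3. Il10, whose product damps inflammation, was at 0, 14.04 and 0 against 40.2, 48.2 and 14.3 adjusted reads and did not pass (adjusted p = 0.053), though it did without replicate 2 of the negative control (adjusted p = 0.005).

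Few genes for NF-κB subunits and their inhibitors passed. Of 23 tested 3 rose and 2 fell (median 0.42), shares close to the 10.2% and 7.32% of all genes. Nfkbiz, a nuclear IκB protein that NF-κB needs for secondary response genes, was at 86.1, 148 and 61.3 adjusted reads without and 801, 1170.4 and 984 with surface proteins (log2 fold change 3.39 ± 0.34, limma adjusted p = 0.0017). Bcl3 rose from 158, 124 and 187 to 476, 497 and 564 and Nfkbib from 1151, 1445 and 1143 to 2857, 2474 and 3475. Nfkbid, a further nuclear IκB protein, fell from 172, 158 and 157 to 44.98, 74.9 and 51.7 (log2 fold change -1.52 ± 0.21). Nfkb1, Rel, Rela and Relb did not pass, with log2 fold changes of 0.78, 0.90, 0.42 and 0.54, but Rel passed without replicate 3 of the negative control (adjusted p = 0.021). Nfkbia, the prompt inhibitor of NF-κB, did not pass at 7367, 8202 and 7863 against 7336, 8134 and 9527 adjusted reads.

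Among 20 genes for mRNA decay factors, MAP kinase phosphatases and SOCS proteins, 10 rose and 2 fell (median 1.04). Zc3h12a, the RNase Regnase-1 that cuts cytokine mRNA, rose from 50.5, 82.0 and 75.1 to 209, 195 and 201 adjusted reads, and its relative Zc3h12c from 65.5, 61.6 and 84.04 to 249, 265 and 239. Zfp36 (tristetraprolin), which speeds the decay of AU-rich mRNA, rose from 123, 182 and 186 to 371, 491 and 374, whereas its paralogue Zfp36l1 fell from 673, 428 and 306 to 104, 90.1 and 95.7 (log2 fold changes 1.34 ± 0.22 and -2.20 ± 0.29). Dusp1, which switches off p38 and JNK, rose from 19.6, 51.9 and 37.6 to 166, 291 and 215, and Dusp6, which switches off ERK, from 127, 193 and 104 to 363, 423 and 368. Arid5a, an RNA-binding protein known to protect Il6 mRNA, rose from 4.602, 2.26 and 1.96 to 23.5, 57.8 and 69.7. The adjusted p of these genes lay between 0.0012 and 0.0081.

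Several sensors of bacteria rose, and so did an inhibitor of their signalling. In a list of 33 receptors, adaptors and inflammasome genes 17 rose and 1 fell, 16 of the 18 in all 6 leave-one-out fits, with a median of 1.08. Irak3 (IRAK-M), a pseudokinase that blocks Toll-like receptor signalling, changed most, from 19.6, 13.1 and 3.94 to 391, 569.5 and 472 adjusted reads (log2 fold change 5.39 ± 0.52, limma adjusted p = 0.0014). Ticam2 (TRAM), the adaptor that leads TLR4 to interferon regulatory factors, rose from 61.8, 62.7 and 66.2 to 644, 662 and 633 with replicates of each group close together (log2 fold change 3.33 ± 0.13). Cd14, the co-receptor that hands lipopolysaccharide and lipoproteins to Toll-like receptors, rose from 738, 769.7 and 320.3 to 2353, 3657 and 2918. Tlr4 rose from 74.01, 69.1 and 62.3 to 194, 227 and 181 and Tlr1, a partner of TLR2, from 30.9, 21.7 and 13.8 to 84.2, 58.6 and 86.5. Tlr2, the receptor for bacterial lipoproteins, did not pass at 169.7, 188 and 166 against 301, 224 and 231 adjusted reads (log2 fold change 0.52, adjusted p = 0.064), and neither did Myd88.

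The C-type lectins Clec4d and Clec4e, which bind microbial glycolipids, rose from 312, 289 and 127 to 2110.4, 3479 and 2453 and from 79.6, 144 and 38.5 to 559.7, 1004 and 854 adjusted reads. Among inflammasome genes Casp4, the sensor of cytosolic lipopolysaccharide known as caspase-11, rose from 73.96, 82.1 and 58.3 to 360.0, 666 and 389.5, and Casp1 from 71.2, 64.8 and 129 to 389, 587 and 480.4. Naip2, Naip5 and Nlrc4, which together detect flagellin and secretion systems, rose by 2.22, 1.88 and 2.79 on the log2 scale. Gsdmd, the pore protein that the caspases cut, did not pass at 358, 322 and 364 against 238, 243 and 162 (log2 fold change -0.72). Nlrp10 alone fell, from 102, 91.5 and 91.9 to 24.4, 14.3 and 20.99 adjusted reads.

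Most interferon-stimulated genes rose, over a wide span of levels. Of 37 tested antiviral genes 31 rose and none fell, 25 of them in all 6 leave-one-out fits, and each of the 37 had a log2 fold change above 0 (median 2.70). Usp18, which removes ISG15 from proteins and shuts off the interferon receptor, was at 9.28, 22.8 and 11.8 adjusted reads without and 389, 546 and 509 with surface proteins (log2 fold change 5.03 ± 0.33, limma adjusted p = 0.00046). Isg15 itself went from 29.9, 28.2 and 30.6 to 389.5, 480.0 and 481, and Rsad2 (viperin), which blocks viral replication with a modified nucleotide, from 5.53, 20.6 and 10.9 to 212, 210.3 and 148. Irf7, the regulator of type I interferon genes, rose from 43.02, 55.1 and 16.8 to 720.1, 703 and 527, and Ifi44 from 265, 197 and 192 to 2475, 2524 and 2699.5. Each of these genes had surface protein libraries above every library of the negative control.

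Some factors downstream of the interferon receptor rose. Stat2 and Irf9, parts of the complex that binds interferon-stimulated promoters, rose by 1.94 and 1.73 on the log2 scale. The RNA sensors Ddx58 (RIG-I) and Ifih1 (MDA5) rose from 82.4, 92.8 and 36.6 to 371, 632 and 508 and from 12.1, 35.7 and 14.8 to 124, 185 and 195. Eif2ak2, the RNA-dependent kinase PKR, had overlapping groups at 171, 229 and 169 against 206, 240.0 and 228. Mx1 and Oasl2, classical markers of the response, did not reach the limit on low values: in the surface protein group Oasl2 was at 7.797, 77.9 and 25.3 adjusted reads. Oas1a and Oas1g of this list are near-identical neighbours, so each value on its own is uncertain.

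Promoters of interferon-stimulated genes are known to carry the interferon-stimulated response element, searched here on both strands as GAAA, 2 bases of any kind, then GAAA. It was found in the promoters of 13 of the 26 tested antiviral genes with a promoter in the table (50.0%), of 3.99% of all genes in the table and 3.71% of those tested, of 8.58% of the genes that rose and of 2.80% of those that fell. The promoters of Isg15 and Rsad2 are shown, on the strand of the gene, with a match in capitals, at chr4:156200845-156200914 (minus strand) and chr12:26456533-26456602 (minus strand) of GRCm38.p6. Isg15 holds 3 overlapping matches in the 250 bases before its start, all within the stretch shown, and the capitals mark the last of them, which begins 66 bases before the start.
Isg15: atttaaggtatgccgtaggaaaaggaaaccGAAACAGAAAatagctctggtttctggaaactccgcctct
Rsad2: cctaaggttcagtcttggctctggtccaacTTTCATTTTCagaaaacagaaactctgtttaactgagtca
In Rsad2 the 1 match begins 120 bases before the start and is read on the other strand.

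The interferon-inducible GTPases were mostly low. Of 17 genes listed, 6 were tested and 4 rose. Gbp8, a guanylate-binding protein, was at 0, 0.098 and 0 adjusted reads without and 84.2, 253 and 87.6 with surface proteins, at least 47.2-fold higher, and Gvin1, a very large GTPase, was at 0, 6.59 and 4.93 against 299, 406 and 266. Irgm2 rose from 24.3, 15.2 and 19.8 to 105, 98.9 and 79.0. Gbp2, Gbp3, Gbp4, Gbp5 and Gbp6, well known interferon-γ targets, did not enter the comparison, with Gbp2 at 0, 0.95 and 3.24 and Gbp5 at 14.8, 2.87 and 2.24 adjusted reads in the surface protein libraries.

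Some antigen presentation genes rose. Of 20 tested genes, 5 rose (25.0%, against 10.2% of all genes) and none fell, all 5 in each leave-one-out fit, with a median of 0.56. Cd74, the invariant chain that guides MHC class II, rose from 806, 899 and 789 to 2015, 3427 and 2611 adjusted reads (log2 fold change 1.66 ± 0.22), while the class II genes H2-Aa and H2-Ab1 did not reach the limit on low values. H2-D1, a class I heavy chain, rose from 3379.5, 3567 and 3989 to 6979, 8682 and 7808, and the peptide transporter subunit Tap1 from 101, 89.6 and 45.5 to 209, 273 and 292. B2m, the light chain of class I, was higher in all 3 surface protein libraries at 8712, 11159 and 10719 adjusted reads against 5587, 6635 and 5739.7, a log2 fold change of 0.76 that stays under the limit of 2-fold.

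Several receptors and ligands that face T cells rose. Of 16 tested co-stimulatory and checkpoint genes 8 rose and 2 fell (median 1.03). Cd40, the receptor that T cells engage with CD40 ligand, was at 4.59, 7.67 and 2.95 adjusted reads without and 206, 241 and 253 with surface proteins (log2 fold change 5.34 ± 0.30, limma adjusted p = 0.00029). Cd274 (PD-L1), which restrains T cells, rose from 107, 168 and 113 to 397, 582 and 539.8, and Tnfsf9 (4-1BB ligand) from 43.97, 75.6 and 50.4 to 221, 432 and 359.8. Cd47, the signal against phagocytosis, rose from 737, 956 and 804 to 2358, 1877 and 2223, and Cd200r1, an inhibitory receptor of macrophages, from 22.4, 33.5 and 35.6 to 148, 194 and 157. Cd80 did not pass at 79.7, 116 and 92.9 against 33.3, 72.9 and 81.2, and Cd86 did not reach the limit on low values, at 6.85, 17.4 and 11.9 adjusted reads with surface proteins and at most 0.056 without.

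In the antimicrobial, acute-phase and complement list 12 of 14 tested genes rose and 1 fell. Its median was 3.28, but 2.42 without replicate 3 of the negative control, below the 2.61 of the antiviral list in the same fit. Slpi, a protease inhibitor of mucosal defence, was at 8.34, 0.11 and 0 adjusted reads without and 180.0, 302 and 159 with surface proteins (log2 fold change 6.57 ± 0.87). S100a8, a subunit of the metal-binding protein calprotectin, was at 0, 0.11 and 0 against 198, 209 and 113, at least 57.8-fold higher. The lysozyme gene Lyz2 rose from 1518, 1064 and 420.1 to 5913, 4796 and 4149 adjusted reads and Lyz1 from 964, 907 and 329 to 4701, 5449 and 5045, near-identical genes whose single values are uncertain. Mpeg1 (perforin-2), a pore protein against engulfed bacteria, rose from 709.7, 914 and 707 to 2033, 3244 and 2637. Cfp (properdin) did not pass at a log2 fold change of 0.75.

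Receptors for lipid mediators, metabolites and bacterial peptides changed in both directions. Of 17 tested genes 8 rose and 2 fell, with a median of 1.67, or 0.99 without replicate 3 of the negative control. Fpr2, the receptor for formylated bacterial peptides, was at 0, 1.19 and 0 adjusted reads with RANKL alone and 218, 109 and 115 with surface proteins, at least 49.1-fold higher. Ptger2, a receptor for prostaglandin E2, rose from 2.72, 5.51 and 2.95 to 77.4, 101 and 75.5, whereas Ptger4, a further receptor for the same ligand, went from 63.8, 90.3 and 54.4 to 24.4, 12.4 and 5.64. The fall of Ptger4 was lost once surface protein replicate 2 was left out (adjusted p = 0.053). Gpr84, which senses medium-chain fatty acids, rose from 13.96, 17.4 and 9.87 to 271, 158 and 164. Gpr183 (EBI2), the oxysterol receptor that guides osteoclast precursors to bone surfaces, fell from 1001, 1328 and 1554 to 306, 192 and 260.2 adjusted reads (log2 fold change -2.35 ± 0.25, limma adjusted p = 0.0019).

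Several enzymes that make immune effectors from metabolites rose. Of 20 tested genes 8 rose and 3 fell (median 0.49). Irg1 (Acod1), which makes itaconate in mitochondria, was at 29.9, 18.4 and 10.9 adjusted reads without and 911, 895 and 962 with surface proteins (log2 fold change 5.58 ± 0.34, limma adjusted p = 0.00037). Nos2, the inducible nitric oxide synthase, went from 11.2, 21.7 and 0.97 to 419.8, 494 and 308, and Gch1, which starts the synthesis of its cofactor tetrahydrobiopterin, from 43.02, 92.8 and 49.4 to 1065, 998 and 758. On the path to prostaglandin E2, the enzymes Ptgs2 (COX-2) and Ptges rose. Ptgs2 was at 0.85, 1.19 and 0 against 123, 253 and 188 adjusted reads, at least 62.6-fold higher, and the synthase Ptges at 1.79, 6.58 and 1.96 against 64.6, 57.7 and 38.4. The leukotriene path changed in opposite directions: Alox5 fell from 67.5, 91.5 and 80.1 to 34.2, 24.9 and 27.6 while its partner Alox5ap rose from 459, 467 and 301 to 1108, 1415 and 1373.

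Genes of the ATF4 response, which cells switch on when amino acids run short or proteins misfold, rose widely. Of 33 tested genes 25 rose and 1 fell, 22 of these 26 in all 6 leave-one-out fits, with a median of 1.75. Atf4 itself rose from 2348, 3396 and 2128 to 9640.2, 9462 and 8749 adjusted reads (log2 fold change 1.85 ± 0.21). Trib3, a pseudokinase that feeds back on ATF4, went from 2.72, 70.2 and 4.93 to 1539, 1809 and 1574 (log2 fold change 7.14 ± 1.06, limma adjusted p = 0.0055). The value of 70.2 in replicate 2 of the negative control was far above those of replicates 1 and 3, and replicate 2 was also the highest of the negative control in Atf4, Ddit3, Asns and Atf5. Ddit3 (CHOP) rose from 371, 619.8 and 305 to 5975, 6746 and 6921, and Atf5 from 119.9, 169 and 95.9 to 1575, 1634 and 1759.

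Several genes of amino acid supply in this list rose too. Asns, asparagine synthetase, rose from 259, 409 and 288 to 1491, 1697 and 1562 adjusted reads, and Phgdh, the first enzyme of serine synthesis, from 226, 311 and 225 to 837, 751 and 868. The transporter pair Slc7a5 and Slc3a2, which imports leucine, rose from 178, 216 and 134 to 1178, 745 and 926 and from 901, 1515 and 978 to 6462, 7781 and 6084. The 4 listed tRNA synthetases rose, Wars by 2.15, Aars by 1.85, Sars by 1.58 and Gars by 1.52 on the log2 scale. In one-carbon metabolism the mitochondrial enzymes Aldh1l2 and Mthfd2 rose (18.6, 83.2 and 48.4 to 1162, 1098 and 952 and 825, 1424 and 855 to 3562, 2801 and 3259.8 adjusted reads), while the cytosolic enzyme Mthfd1 fell from 342, 294 and 266 to 164, 110.4 and 104. Slc1a5 and Slc38a2, further amino acid transporters, had overlapping groups with log2 fold changes of -0.07 and 0.09.

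The element that ATF4 binds with a C/EBP partner was searched as TGATGNAAT on both strands. It was found in 3 of the 28 tested genes of the list with a promoter in the table, in 1.08% of all genes in the table and 0.541% of those tested, in 1.23% of the genes that rose and in none of the 608 that fell with a promoter. The 3 genes are shown with the match in capitals, on the strand of the gene, at chr7:126625543-126625611 (Nupr1, minus strand), chr8:111033699-111033767 (Aars, plus strand) and chr6:55037940-55038000 (Gars, plus strand) of GRCm38.p6.
Nupr1: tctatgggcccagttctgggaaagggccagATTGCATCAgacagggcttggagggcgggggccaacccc
Aars: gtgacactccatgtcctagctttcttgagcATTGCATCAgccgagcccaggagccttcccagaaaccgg
Gars: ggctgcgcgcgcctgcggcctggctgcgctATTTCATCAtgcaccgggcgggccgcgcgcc
All 3 read as the reverse complement of the searched letters, beginning 111, 113 and 31 bases before the start. Nupr1, a stress-induced chromatin protein, rose from 338, 389 and 159 to 923, 1354 and 1241 adjusted reads, and Aars from 425, 455 and 443 to 1515, 1671 and 1601.

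Chaperone genes changed in both directions. Of 24 tested genes 12 rose and 3 fell (median 0.78). Those that rose act in or for the endoplasmic reticulum and the 3 that fell are heat shock genes of the cytosol, a division made after the values were seen and not tested. Creld2 rose from 329.8, 319 and 279 to 1799, 1838 and 1710.4 adjusted reads, Hyou1 from 843, 764 and 779 to 2960.3, 3025 and 3092 and Pdia4 from 869.7, 669 and 636 to 3168, 2932 and 2873, with adjusted p between 0.00027 and 0.00089. Herpud1, a factor for the removal of misfolded proteins, rose from 484, 473 and 451 to 3678, 1311 and 2067, with replicate 1 of the surface protein group well above replicates 2 and 3. Of the heat shock genes, Hsph1 fell from 1257, 914 and 1042 to 436, 299.5 and 449 (log2 fold change -1.45 ± 0.22), and the cytosolic Hspa8 and the mitochondrial Hspd1 did not pass, with log2 fold changes of -0.92 and -0.26. Hspa8 passed without negative control replicate 2 or surface protein replicate 1 (adjusted p = 0.016 and 0.019). Xbp1 did not pass at 889, 845 and 789.7 against 892, 779 and 908; gene counts do not separate its spliced form.

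Antioxidant genes known as targets of NRF2 rose in part: 11 of 26 tested rose and none fell (median 0.88). Gclm, the modifier subunit of glutathione synthesis, rose from 208, 176 and 233 to 595, 804 and 636 adjusted reads (log2 fold change 1.71 ± 0.19). Prdx1, an abundant peroxidase, rose from 3909, 3861 and 4030.2 to 7669, 10397 and 8340.0, and Srxn1, which repairs it, from 485, 527 and 399 to 1308, 1329.7 and 1217. The catalytic partner Gclc and Nfe2l2, the gene of NRF2 itself, had overlapping groups (log2 fold changes 0.16 and 0.15), and Nqo1, the usual reporter of NRF2, did not reach the limit on low values. Hmox1, heme oxygenase, was called higher (log2 fold change 2.16 ± 0.52) but only in 1 of the 6 fits that left out a library, that without replicate 2 of the negative control (adjusted p up to 0.083).

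The antioxidant response element was searched as TGACNNNGC on both strands, letters loose enough to occur in 13.99% of all genes in the promoter table. They were found in 8 of 20 tested genes of the list with a promoter, in 17.2% of the genes that rose, in 16.8% of those that fell and in 16.99% of all tested. The promoter of Gclm is shown as the best known example, with the match in capitals 134 bases before the start, at chr3:122245393-122245461 (plus strand) of GRCm38.p6.
Gclm: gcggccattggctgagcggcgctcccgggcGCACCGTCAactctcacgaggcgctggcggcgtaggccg
A match of such loose letters is a description of the sequence only.

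Several iron storage and export genes rose. Of 17 tested genes 10 rose and 1 fell (median 1.15). Both ferritin chains rose, Ftl1 from 7240.1, 7367 and 6936 to 15086, 18845 and 14361 adjusted reads. Slc40a1 (ferroportin), the exporter of iron, rose from 35.5, 24.9 and 27.7 to 137, 295 and 288, and Slc11a1 (NRAMP1), which pumps metal out of the phagosome, from 215, 245 and 214 to 1017, 1355 and 1095 (log2 fold changes 2.92 ± 0.33 and 2.35 ± 0.16). Mt2, a metallothionein that binds zinc and copper, rose from 492, 594 and 366 to 5408, 6004 and 5080.4, while its paralogue Mt1 did not pass at 3305, 3460.1 and 3401 against 4466, 5385 and 4349.6 (log2 fold change 0.48). Tfrc, the transferrin receptor, was lower in all 3 surface protein libraries at 892, 917 and 778 adjusted reads against 1460.3, 1705 and 1547, a change of under 2-fold (log2 fold change -0.86, adjusted p = 0.0081). Cp (ceruloplasmin), which oxidises the exported iron, went from 54.3, 40.01 and 2.95 to 604, 590.4 and 486, and its rise was lost once surface protein replicate 2 was left out (adjusted p = 0.054).

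Most sterol synthesis genes were lower, some by enough to pass. Of 24 tested genes 7 fell (29.2%, against 7.32% of all genes) and none rose, and 21 had a log2 fold change below 0 (median -0.83). Nsdhl, an enzyme of the later steps, fell from 288, 372 and 358 to 124, 109 and 115 adjusted reads (log2 fold change -1.53 ± 0.16, limma adjusted p = 0.0019). It was among the 2 genes of the list that were called in all 6 leave-one-out fits. With negative control replicate 1 or 3 left out the list held 4 or 2 called genes. The late enzyme Sc5d did not pass at a log2 fold change of 0.72.

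Genes for lipid storage and export divided, with 7 of 27 tested rising and 5 falling (median -0.41). Cd36, the scavenger receptor for oxidised lipoproteins, rose from 107, 186 and 122 to 1406, 1987 and 1432 adjusted reads (log2 fold change 3.56 ± 0.26, limma adjusted p = 0.00064). Plin2, the coat of lipid droplets, rose from 191, 239 and 189.8 to 1169, 1763 and 1105, and Fabp4, a fatty acid carrier, from 0, 3.35 and 0 to 90.96, 101 and 71.5. Abca1, which exports cholesterol, rose from 78.7, 51.9 and 93.9 to 166, 219.9 and 252. Lpl, which frees fatty acids from lipoproteins, fell from 6169, 6303 and 10506 to 2685, 1449 and 2566, and Scd2, a fatty acid desaturase, from 3786, 3821 and 5116 to 2096, 1262 and 2027 (log2 fold changes -1.78 ± 0.33 and -1.26 ± 0.25). Apoe went from 466, 191 and 203 to 73.4, 38.3 and 80.2, a fall that was lost once surface protein replicate 2 was left out (adjusted p = 0.05). Without that library the list held 7 called genes in place of 12.

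Many osteoclast effectors fell. Of 28 tested genes 13 fell and none rose, 10 of the 13 in all 6 leave-one-out fits, with a median of -1.16. Ocstamp, a membrane protein that precursors need to fuse, was at 322, 240.4 and 564 adjusted reads without and 22.5, 16.2 and 19.9 with surface proteins (log2 fold change -4.11 ± 0.33, limma adjusted p = 0.00085). Dcstamp, its partner in fusion, went from 1051, 1159 and 2068 to 497, 185 and 213. Car2, the carbonic anhydrase that supplies protons for bone dissolution, fell from 6788, 4189.8 and 4005 to 1286, 900.4 and 1369, Ckb, the creatine kinase of the sealing zone, from 1951, 2451 and 3850.0 to 625, 346 and 794, and Cd109 from 211, 332 and 439 to 69.5, 30.7 and 90.1. In Dcstamp, Ckb and Cd109 replicate 3 was the highest of the negative control. Not every gene of resorption passed: the proton pump subunit Tcirg1 and the chloride channel Clcn7 had overlapping groups at 1913, 2253 and 2816 against 1809, 1615 and 1983 and 267, 534 and 584 against 407, 433 and 454 adjusted reads, and Mmp9, a gelatinase, did not pass (log2 fold change -0.71).

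Transcription factors of the osteoclast lineage and their repressors changed in both directions. The list was not split into these kinds, and the genes named here were chosen with their values known. In a list of 31 factors 8 rose and 8 fell, 13 of the 16 in all 6 leave-one-out fits, with a median of -0.02. Irf8, a macrophage factor that represses osteoclast genes, rose from 117, 232 and 60.3 to 920.0, 859 and 771 adjusted reads (log2 fold change 2.83 ± 0.46, limma adjusted p = 0.0076). Bcl6, a further repressor, rose from 106, 128 and 126 to 307, 399 and 426, and Maf from 0.86, 0.079 and 0 to 31.4, 53.04 and 44.6, at least 14.3-fold higher. In the opposite direction, Prdm1 (BLIMP1), which silences those repressors, fell from 151, 121 and 159 to 75.3, 53.7 and 36.4 (log2 fold change -1.42 ± 0.28), and Ppargc1b, a co-activator of mitochondrial genes in osteoclasts, from 422, 527 and 619 to 173, 196 and 158 (log2 fold change -1.56 ± 0.19). The AP-1 genes did not all pass: Fosl1 and Jun rose (1.46 and 1.64 on the log2 scale), Junb and Jund had overlapping groups, and Batf came up from 0, 0.073 and 0 to 32.4, 45.4 and 12.1, at least 9.98-fold higher.

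Lysosomal genes mostly did not pass, and those that did mostly rose. Of 38 tested V-ATPase and lysosomal genes 7 rose and 1 fell (median 0.16, or between 0.04 and 0.25 with 1 library left out). Ctsl, a cathepsin of macrophage lysosomes, rose from 568, 842 and 484 to 4472, 6529.6 and 5126 adjusted reads (log2 fold change 3.11 ± 0.26), Ctsc from 113, 61.6 and 55.3 to 268, 353 and 411 and Ctsd from 3925, 4843 and 6088 to 12143, 21935 and 14491. Within the proton pump the a1 subunit Atp6v0a1 rose from 139, 131 and 189.8 to 511, 742 and 489.5, while Atp6v1b2, the B2 subunit, fell from 5095, 5393 and 7637 to 2852, 2248 and 2479 (log2 fold changes 1.91 ± 0.24 and -1.24 ± 0.21). Npc1, which moves cholesterol out of lysosomes, rose from 349, 455 and 421 to 1041, 1311 and 1087.

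Many macrophage identity genes rose. Of 18 tested genes 10 rose and 2 fell (median 1.1998). Itgam (CD11b) rose from 239, 259 and 213 to 1743, 2152 and 1862 adjusted reads (log2 fold change 3.01 ± 0.16, limma adjusted p = 0.00023) and Adgre1 (F4/80) from 106, 93.9 and 26.7 to 712, 1113 and 966. Siglec1 (CD169), a receptor for sialylated particles, rose from 0, 4.43 and 2.95 to 109.7, 154 and 80.1, and the scavenger receptor Msr1 from 913, 979.9 and 1023 to 2666, 2922 and 2801. Csf1r, given above, fell, and Itgax (CD11c) went from 54.5, 33.4 and 96.95 to 17.6, 12.4 and 10.02, a fall that was lost once surface protein replicate 2 was left out (adjusted p = 0.052). Cd68 and Spi1 (PU.1) did not pass, with log2 fold changes of -0.24 and -0.41.

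Adhesion genes changed in both directions, 6 of 24 tested rising and 4 falling (median 0.08). Gsn (gelsolin), which severs actin in the podosomes of osteoclasts, fell from 2942, 3504 and 4816 to 1175, 842 and 1219 adjusted reads (log2 fold change -1.79 ± 0.25), and Vcl (vinculin) from 356, 346 and 449.7 to 108, 149.6 and 147. Among integrins Itga4 fell from 5296, 3861 and 2677 to 934, 877 and 852 while Itgal, the α chain of LFA-1, rose from 11.2, 7.67 and 6.901 to 80.3, 120.1 and 114 and Itgb7 from 181, 313 and 305 to 775, 1129.7 and 987. Marcks, a membrane-bound regulator of actin, was at 8.34, 2.27 and 0 against 175, 148 and 103 adjusted reads (log2 fold change 5.48 ± 0.77).

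Most genes of DNA replication fell. Of 38 tested genes 31 fell and none rose, 22 of them in all 6 leave-one-out fits, and each of the 38 had a log2 fold change below 0 (median -1.80). Mcm6, a subunit of the replicative helicase, was at 727, 516 and 572 adjusted reads without and 102, 46.01 and 60.5 with surface proteins (log2 fold change -3.17 ± 0.31, limma adjusted p = 0.0016). Mcm5 went from 646, 413 and 454 to 131, 69.03 and 122, Pcna, the clamp of the polymerases, from 1136, 837 and 992 to 354, 281 and 321, and Rrm2, which makes the DNA precursors, from 232, 139 and 206 to 47.9, 25.9 and 35.3. Uhrf1, which carries DNA methylation through replication, fell from 318, 293 and 276 to 75.3, 40.2 and 28.7. For Mcm6, Mcm5, Lig1, Rrm2 and Pcna the lowest of the 6 libraries was replicate 2 of the surface protein group.

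The letters TTTGGCGC, bound by E2F factors at replication genes, were found on either strand in 3.29% of the genes that fell (20 of 608 with a promoter), in 0.980% of the genes that rose and in 0.585% of all genes in the table, or 1.25% of those tested. In the replication list 6 of 31 genes hold them. The promoters of Mcm5 (chr8:75109330-75109397, plus strand) and Mcm6 (chr1:128359715-128359782, minus strand, GRCm38.p6) are shown on the strand of the gene, with the match in capitals, 149 and 47 bases before the start.
Mcm5: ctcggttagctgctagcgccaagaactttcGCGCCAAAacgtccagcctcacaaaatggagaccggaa
Mcm6: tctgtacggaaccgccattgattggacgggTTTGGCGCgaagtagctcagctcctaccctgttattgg
Mcm6 holds 2 matches and Mcm5 holds 1.

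Most mitotic genes fell as well, with 28 of 34 tested falling and none rising (median -2.10). Aurkb, the kinase of the chromosomal passenger complex, fell from 118, 130.3 and 102 to 15.6, 19.1 and 23.2 adjusted reads (log2 fold change -2.55 ± 0.19, limma adjusted p = 0.00072) and Kif23, a motor of cytokinesis, from 595, 575 and 595 to 134, 114 and 176. Plk1 was at 721, 523 and 666 against 188, 39.3 and 78.1, Cenpf at 1199, 945 and 956 against 265, 77.7 and 148, and Mki67, the usual marker of dividing cells, at 1339.9, 1051 and 1058 against 322, 85.3 and 193. In these last 3 genes replicate 1 was the highest and replicate 2 the lowest of the surface protein group. The list median in the single surface protein libraries was -1.39, -2.73 and -2.15, and that of replication genes -1.26, -2.21 and -1.91. Without replicate 1 or without replicate 3 of the negative control the list held 17 called genes.

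Many histone genes fell. Of 36 tested genes 16 fell and 2 rose (median -0.81). Among the 26 that reached 10 adjusted reads in all 6 libraries 14 were called, against 15.6% of all genes under that limit, and the median was -1.53. Most of those that fell were copies of histone H2A of the first histone cluster, from Hist1h2ap at 4694, 4329 and 3530.3 against 1399, 667 and 1162 adjusted reads to Hist1h2ak at 116, 116 and 84.04 against 37.2, 16.3 and 35.3. These copies are near-identical, so the value of a single one is uncertain. H2afx, the variant marked at DNA breaks, is a gene of its own and fell from 784, 566 and 635 to 252, 107 and 163 (log2 fold change -1.998 ± 0.33). H1fx, a linker histone variant, rose from 1.79, 6.56 and 4.93 to 33.3, 41.4 and 47.9.

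Some genes that control entry into the cycle changed, in both directions. Of 25 tested G1 and checkpoint genes 3 rose and 4 fell (median -0.36), the share that rose being near the 10.2% of all genes. With 1 library left out the median lay between -0.49 and -0.16. Gadd45a, which arrests cells under stress, rose from 2.72, 4.43 and 1.96 to 348, 509.9 and 362 adjusted reads (log2 fold change 6.68 ± 0.27, limma adjusted p = 8.5e-05). Ccnd2, cyclin D2, was at 9.29, 0.091 and 0 against 52.9, 67.3 and 56.8. Cdkn1a (p21) was higher in every surface protein library, at 1716, 1926 and 1953 against 3287, 3635 and 3088, by less than 2-fold (log2 fold change 0.84). E2f8 and E2f1, factors of the replication programme, fell from 178, 148 and 159 to 42.1, 19.1 and 7.84 and from 275, 234 and 315 to 111, 123 and 132. Ccnd1 and Cdk4 had overlapping groups, with log2 fold changes of -0.36 and -0.04.

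Some genes for and some against survival rose, while most did not pass. Of 26 tested genes 8 rose and 1 fell (median 0.24). Bcl2 rose from 98.4, 125 and 99.9 to 358, 226 and 261 adjusted reads and the survival kinase Pim1 from 146, 129 and 129 to 328, 347 and 353 (log2 fold changes 1.36 ± 0.22 and 1.34 ± 0.13). Bbc3 (PUMA), which promotes apoptosis, rose from 242, 258 and 238 to 748, 1313 and 1200.0, and the death receptor Fas from 0, 7.66 and 2.95 to 60.7, 79.8 and 88.6. The A1 genes Bcl2a1a, Bcl2a1b and Bcl2a1d rose by 1.68 to 1.88 on the log2 scale and are near-identical copies. Bax and Bak1, which permeabilise mitochondria, had overlapping groups.

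In several groups of housekeeping genes none passed, or a share near or under that of all genes. None of 80 ribosomal protein genes, 39 proteasome subunits or 15 reference genes passed in limma, with medians of -0.09, -0.06 and -0.02. The unadjusted p was under 0.05 for 4, 9 and 8 of them, and the adjusted p for 1, 5 and 4, all with a change of less than 2-fold. Of the reference genes 1 passed with quantile normalization, with equal totals, or once surface protein replicate 1 was left out. Glycolysis and hypoxia genes had a median of -0.05, and 3 of 26 rose (11.5%, near the 10.2% of all genes). Ero1l, an oxidase of the endoplasmic reticulum, was one of them (289, 1069 and 384 to 3567, 3931 and 3451 adjusted reads). With replicate 2 of the negative control left out, in which Ero1l was highest among the controls, the list held 6 called genes. Pkm and Ldha were at log2 fold changes of -0.38 and -0.54. Nuclear-encoded subunits of oxidative phosphorylation were shifted down by a small amount, 71 of 75 being below 0 with a median of -0.54. Of them 7 fell (9.33%, against 7.32% of all genes), and 3 of the called genes kept their call in all 6 leave-one-out fits. The groups did not overlap in 63 of the 75, against 48.4% of all genes tested. Uqcrh, a subunit of complex III, was the clearest fall, from 6021, 5816 and 6320.3 to 2588, 2086 and 2384 adjusted reads (log2 fold change -1.37 ± 0.14). The list held 4 called genes without replicate 3 of the negative control and 3 without replicate 2 of the surface protein group. Mitochondrial ribosomal proteins had a median of -0.28, with 1 of 74 rising and 5 falling (1.35% and 6.76%). Without replicate 3 of the surface protein group 3 of them were called in all. Of 13 small nucleolar RNA host genes, Snhg18 alone rose (log2 fold change 1.25 ± 0.20). It was joined by another gene when replicate 1 of the negative control, or replicate 3 of the surface protein group, was left out.

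**Figure D4:**
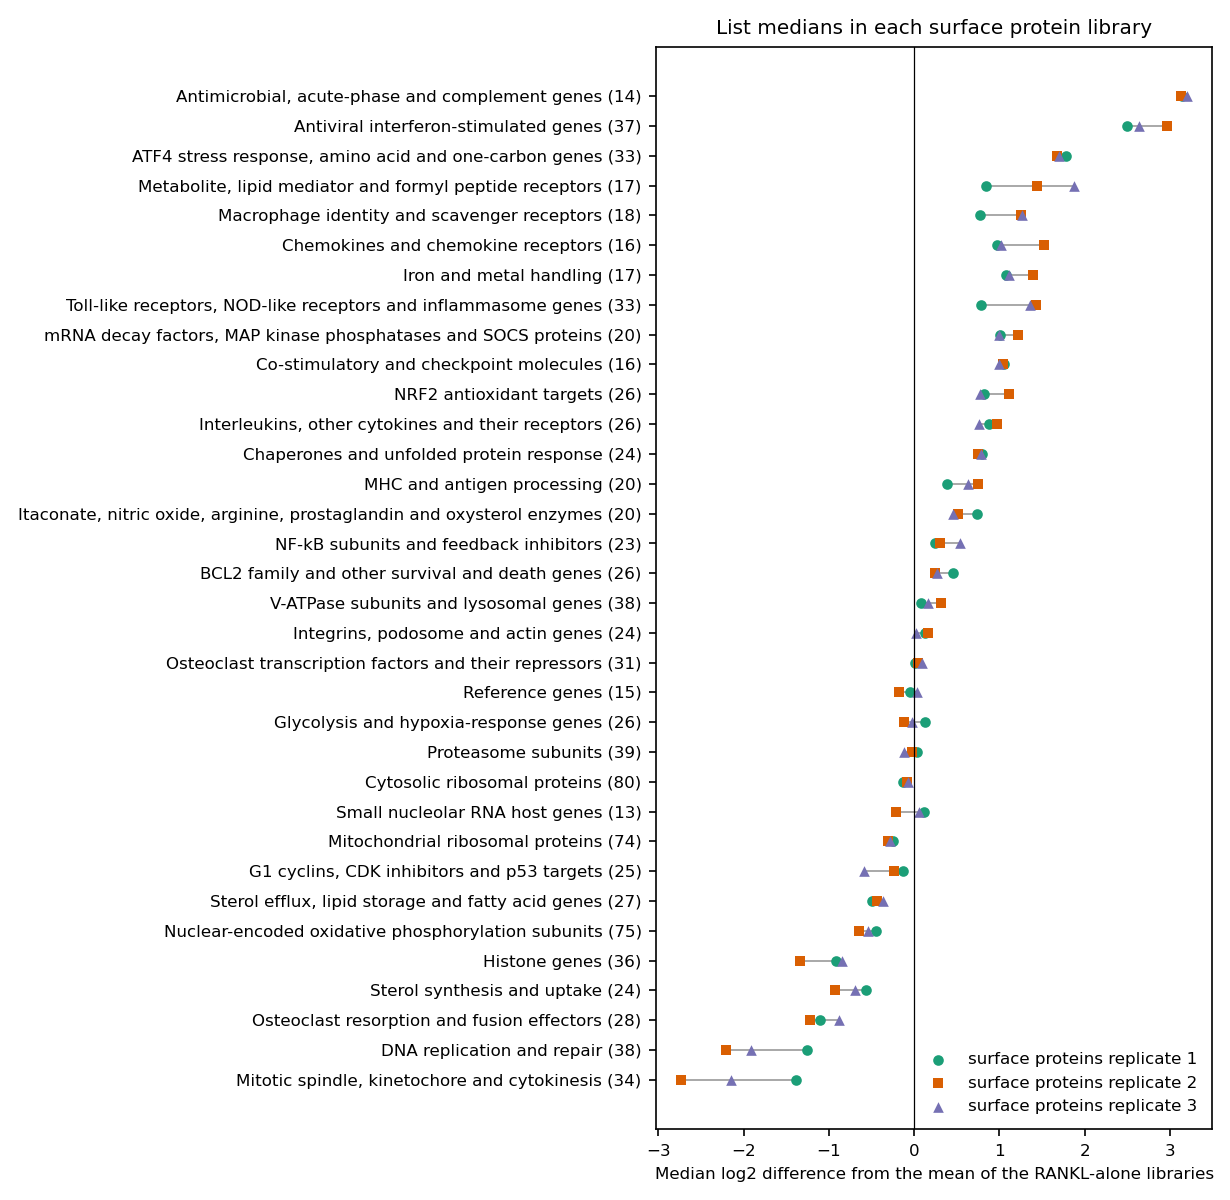
The median log2 difference of each list from the mean of the RANKL-alone libraries (x axis), given for each surface protein library by a circle (replicate 1), a square (replicate 2) and a triangle (replicate 3). For mitotic genes the 3 libraries lie at -1.39, -2.73 and -2.15.

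The size of the difference varied between surface protein libraries. Over the 34 lists with at least 10 tested genes, replicate 2 had the largest absolute median in 19, replicate 1 in 8 and replicate 3 in 7. Metabolite and lipid mediator receptors had medians of 0.84, 1.43 and 1.87 in replicates 1, 2 and 3, the largest in replicate 3. A test of the replicates against each other was not made, since each is a single library.

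Some called genes overlap a neighbour. Of 1111 pairs of tested genes whose spans overlap in the RefSeq annotation of GRCm38, both genes were called in 1 direction in 56, and in 3 pairs the values lay within 0.15 of each other on the log2 scale in every library. These 3 were Cd72 and Tesk1, given above, Kif20a and Cdc23, and Evl and Degs2. The last pair lies on chromosome 12 (108554681 to 108688516 and 108686792 to 108702306), at 49.0, 35.6 and 21.98 and 49.0, 35.6 and 21.96 adjusted reads with surface proteins. Cox6a2, a muscle subunit of complex IV, was at 5.53, 2.27 and 0 adjusted reads with RANKL alone and 691, 721 and 672 with surface proteins. It is the 1 oxidative phosphorylation gene that rose, and its span on chromosome 7 (128205435 to 128206366) meets the end of Itgad (128173933 to 128205504), an integrin chain that went from 0, 0.087 and 0 to 70.6, 46.2 and 74.1. Reads of the 2 genes were not separated here. The spans of Ebi3, Fosl1, Itga4, Cp and Gvin1 also meet that of a gene called in the same direction, so their values are uncertain.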

How the data were processed

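The libraries were 3′ mRNA libraries (QuantSeq) sequenced as 75-base single-end reads. Per the labels the submitters' processing notes name Bowtie2, bedtools and mm10, and the methods of the study add quantile normalization between samples, but the sorted deposited columns are not identical. Versions, annotation, strand and the treatment of shared reads are not given in the sources used here. The deposited values are log2 of adjusted reads plus 1, made by the authors before deposit for 23282 gene rows. From them, rows that reached 10 adjusted reads in 3 or more of the 6 libraries were fitted with limma 3.58.1 (R 4.3.3, lmFit and eBayes, no covariates, two-sided) on the deposited log2 values, with Benjamini-Hochberg adjustment over the 10874 rows, and a gene was called where the adjusted p was below 0.05 and the change 2-fold or more. Because the constant of 1 is in the log, fold changes of low genes are understated. With 3 against 3 libraries, an exact permutation test of a single gene cannot give a p under 0.1. Named genes were members of the 40 lists, the 15 widest rises and falls among called genes above the median level that the study's text does not name, genes at or under 3 in all libraries of 1 group and at 50 or more in the other, the 10 genes with the most gained and lost reads, and genes beside the limit on low values. Some genes that these rules name are not reported here. The members and lists were chosen with earlier results of these data known. Promoters came from RefSeq (GRCm38.p6), matched by symbol for 8323 tested genes. The fit was tested on values simulated for the 10874 rows of this comparison. There it called 83 of 100 genes changed 4-fold, 89 of 100 changed 8-fold and 8 of 10674 unchanged ones. These counts were not split by level. Whether they hold for low genes, or with as many changed genes as the 1901 called, was not tested. Alternatives changed the scaling, filter, constant, samples, block, moderation and thresholds, and left out each library in turn.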

Additional observations from a re-analysis of the deposited data

How the results depend on the processing

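Direction and side of the threshold of the count of called genes held within 1.5 times under 2 other scalings, 3 other filters, 2 other constants, a fit over all 9 libraries, a fit with trend and robust moderation and each library left out. Those totals ran from 1490 (without replicate 2 of the surface protein group) to 1995 (all 9 libraries). Leaving out libraries gave 1490 to 1876 called genes, 881 to 1146 higher and 600 to 833 lower. Thresholds moved the counts by construction. With no limit on the fold change 3163 genes passed, 1727 higher and 1436 lower. An adjusted p under 0.01 left 1152, of which 385 were lower, and a fold change of at least 4 left 725, of which 490 were higher and 235 lower.

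With the replicate number as a block 1813 genes were called, 1067 higher and 746 lower. Same-numbered libraries deviated together only weakly (correlations of 0.0804, 0.0639 and 0.0258), so they were taken to share only a number, although each library correlated best with its own number, which is a hint from the data and not the design. Among named genes the block ended the call of Cx3cr1 (adjusted p = 0.065) and gave one to Il10 (adjusted p = 0.035). Both calls also changed in other fits. Cx3cr1 was lost with a constant of 0.1 and with trend and robust moderation (adjusted p = 0.05 and 0.051), and Il10 passed with a constant of 5, over all 9 libraries and with trend and robust moderation (adjusted p = 0.033, 0.021 and 0.012).

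Of the named genes, Calr lay just under 2-fold with quantile normalization or equal totals (log2 fold changes 0.99 and 0.99), and Snhg18 missed the threshold with trend and robust moderation (adjusted p = 0.052). With no filter on low values the calls of Cx3cr1 and Hmox1 were lost (adjusted p = 0.096 and 0.063). The sign changed only in genes near 0 that were not called. Xbp1 was at -0.021 with quantile normalization and -0.022 with equal totals, and between -0.015 and 0.099 when a library was left out. Rn45s was at 0 with quantile normalization. When a library was left out, Nfkbia lay between -0.015 and 0.17, Slc38a2 between -0.055 and 0.20 and Clcn7 between -0.37 and 0.19. The cause of these changes was not tested. Depth limits the low genes, where 1 read is close to 1 adjusted read, and with 3 libraries a group small changes that did not pass are not shown to be absent.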
